A study of Mus musculus with 23 samples.

Results

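The Cd209 genes of the mouse encode the DC-SIGN family of sugar-binding receptors, and 8 of them, Cd209a to Cd209h, were looked for by gene name in the deposited tables. Of these 8 genes, 7 have a row in both tables, out of 22524 and 25700 genes, and Cd209h was not analysed here. All 7 passed the low-value filter of both tables, which asked for 2 libraries or more at a value of 1 or above, and were tested. The members were chosen as a gene family, with earlier results of these data known.

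DC-SIGN proteins are C-type lectins: calcium-dependent receptors of the cell surface that bind mannose- and fucose-bearing glycans on microbes and on the body's own glycoproteins. A human cell has a single gene named CD209 beside a close relative, while in the mouse the family has been duplicated into a cluster whose members differ in where they are expressed. Cd209a is the gene most often called mouse DC-SIGN and is known from dendritic cells, Cd209b (also called SIGN-R1) captures blood-borne polysaccharides on marginal zone macrophages of the spleen, Cd209d (SIGN-R3) is a mannose- and fucose-binding receptor of myeloid cells, and Cd209f is commonly used as a marker of perivascular macrophages.

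The libraries were made from macrophages of C57BL/6 mice, sorted by flow cytometry in lots of 1000 cells, in 8 groups and 23 libraries. The first table holds day-7 pups: spleen red pulp macrophages of wild type (RPM_d7_WT) and of the genotype vavCre (RPM_d7_vavCre), and bone marrow macrophages of wild type (BMM_d7_WT) and vavCre (BMM_d7_vavCre), with 3 libraries in each group. The labels name only the Cre, which the Vav promoter drives in blood-forming cells and their progeny, and the design text of the series speaks of a deficiency of Pparg, the lipid-sensing nuclear receptor PPARγ, in the few red pulp-like and erythroblastic island-like macrophages that remain. The second table holds spleen macrophages only: day-7 pups labelled Spic_WT (RPM_d7_Spic_WT, 3 libraries) and Spic_KO (RPM_d7_Spic_KO, 2 libraries), lacking the transcription factor SPIC by their label, and adults labelled WT (RPM_TAM_WT, 2 libraries) and TAM_CreERT2 (RPM_TAM_CreERT2, 4 libraries). CreERT2 is a form of Cre that stays inactive until tamoxifen binds it. The labels define neither TAM nor the promoter of this Cre, and nothing in them says that libraries came from separate animals, so p-values measure the spread between these libraries, which may be technical.

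Values are normalised read counts, from which whole reads could be recovered: each library of the first table holds 4262483 to 21744201 reads and each of the second 692904 to 6289360. The 2 tables were normalised separately and no level is compared across them. Pparg did not check the vavCre labels: the 3 RPM_d7_WT libraries held 1550 to 2124 and the 3 RPM_d7_vavCre libraries 2496 to 4002, and a value for the whole gene does not check a deletion of part of it. Spic fell from 1993 to 3110 in RPM_d7_Spic_WT to 931 and 1236 in RPM_d7_Spic_KO. The macrophage gene Csf1r and the red pulp markers Vcam1, Adgre1, Slc40a1 and Spic were detected in the groups of both tables, and haemoglobin and other erythroid markers were abundant in all of them. In bulk samples such as these, fewer cells of a type and less RNA per cell cannot be told apart.

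The 7 genes lie side by side on chromosome 8 (GRCm38), from 3743397 to 4137707, a stretch of 394 kb. Their order is Cd209a, Cd209e, Cd209d, Cd209b, Cd209c and Cd209f, all on the minus strand, followed by Cd209g on the plus strand. Cd209f (chr8:4102787-4105835) and Cd209g (chr8:4134098-4137707) thus form the far end of the cluster, 28.3 kb apart and pointing away from each other, and 148 kb separate them from Cd209c. Both have up to 8 exons in the annotation. Their coding sequences are 89.2% identical over 582 aligned bases, whereas the other 20 pairs of members are 61.6 to 76.9% identical.

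The promoters of Cd209f and Cd209g are shown because these were the members that changed, and because the same letters stand upstream of both RefSeq starts. Sequences are from RefSeq (GRCm38.p6, with all 7 members matched), from 250 bases before each start up to the first annotated untranslated base, and capitals mark the part of the longest identical run that falls inside the window. The Cd209f window is chr8:4105836-4106014 on the minus strand and the Cd209g window chr8:4134486-4134651 on the plus strand. The Cd209g window lies inside the annotated gene (chr8:4134098-4137707), whose 3610 exonic bases span all of it. Its letters are thus upstream of the RefSeq start but within an annotated exon.
Cd209f: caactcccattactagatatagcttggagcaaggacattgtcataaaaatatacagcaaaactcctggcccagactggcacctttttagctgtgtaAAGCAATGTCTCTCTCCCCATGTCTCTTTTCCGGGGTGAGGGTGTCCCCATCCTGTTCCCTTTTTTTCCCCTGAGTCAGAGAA
Cd209g: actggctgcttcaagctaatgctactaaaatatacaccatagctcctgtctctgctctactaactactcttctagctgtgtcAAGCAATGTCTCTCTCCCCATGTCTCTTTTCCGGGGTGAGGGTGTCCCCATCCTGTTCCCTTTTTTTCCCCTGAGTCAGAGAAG
The identical run goes on past both RefSeq starts and is 180 bases long in all. It was found in 2 of 32851 promoter windows, those of Cd209f and Cd209g, and the longest run shared by any of the other 20 pairs was 7 to 17 bases. Over the aligned windows the Cd209f and Cd209g promoters are 91.8% identical, against 52.4 to 70.7% for the other pairs.

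Of 5 short motifs searched on both strands of these windows, 2 occur in both Cd209f and Cd209g. The AP-1 letters TGAGTCA start 83 bases before the start of Cd209f and 97 before that of Cd209g, within the shared run. They occur in none of the other 5 members and in 5.20% of all promoter windows of the same length. The TATA letters TATAAA start 29 and 43 bases before the 2 starts, lie outside the printed stretches, and are found in 13.6% of windows. They also occur on the opposite strand of the Cd209a window. The letters AGGTCA, which nuclear receptors bind, occur among the members in the Cd209e window (16.3% of all windows), and the letters GAGGAA, the core that PU.1 and SPIC bind, in the Cd209d window (28.3%). The letters TGCTGA, which MAF factors bind, occur in the windows of Cd209a and Cd209d (19.5%). The motifs do not overlap one another by these letters, and a match is a description of the letters, not of a bound site.

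The likeness of Cd209f and Cd209g bears on how their reads can be told apart. Of the 50-base stretches of their annotated transcripts, 29.8% of those of Cd209f and 16.6% of those of Cd209g are found in the other gene. Cd209a, Cd209b, Cd209d and Cd209e share no such stretch with any other gene. These shares pool all annotated transcripts of a gene. For Cd209g they cover 3610 exonic bases, while the transcript with its longest coding sequence has 1169. The share within that transcript was not measured and may be higher. Of Cd209c, 11.6% are shared with genes outside the family. How reads that fit both genes were counted is not given in the sources used here, so the split between Cd209f and Cd209g is uncertain, and the share of both together is given beside them.

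In day-7 spleen macrophages, Cd209f went from one of the modestly expressed genes in wild type to one of the most strongly raised in vavCre. Its value was 474, 658 and 312 in the 3 RPM_d7_WT libraries and 41770, 41940 and 35480 in the 3 RPM_d7_vavCre libraries. The 2 groups lie far apart, and each vavCre library holds more than every wild-type library. The mean rose from 481 ± 173 (SD, n = 3) to 39730 ± 3682 (SD, n = 3), a log2 change of 6.43 ± 0.22 (SE), or 86.0-fold on the scale of log2(value + 1) (limma-trend, Benjamini-Hochberg adjusted p = 2.05e-12). In reads, 2259 in wild type stand against 162253 in vavCre.

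Its neighbour and closest relative Cd209g followed the same pattern at a lower level. The value of Cd209g was 101.5, 141.3 and 61.6 in RPM_d7_WT and 11510, 10390 and 7986 in RPM_d7_vavCre, again without overlap. The mean rose from 101 ± 39.9 (SD, n = 3) to 9962 ± 1801 (SD, n = 3), a log2 change of 6.67 ± 0.24 (SE, limma-trend adjusted p = 1.47e-12). Among the 451 genes that rose in this comparison, Cd209g had the second and Cd209f the third largest log2 change. Cd209f and Cd209g together made up 98.9 to 99.7% of the summed value of the 7 members in the vavCre libraries. The family as a whole went from 0.00576 to 0.0115% of a library's total in RPM_d7_WT to 0.427 to 0.520% in RPM_d7_vavCre.

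Cd209f and Cd209g were the 2 of 7 members called in the spleen, both higher, where 5.52% of all 15130 genes tested were called. The other 5 had wider intervals. Cd209b, the marginal zone receptor, was read at 5.44, 312.5 and 60.2 in RPM_d7_WT and at 167, 482 and 92.8 in RPM_d7_vavCre, so that the groups overlap and differ less than their libraries do (log2 change 1.98, 95% interval -0.61 to 4.57, limma-trend adjusted p = 0.496). Cd209e, a receptor without a settled role, was at 0, 0.831 and 37.4 in wild type and at 28.2, 24.6 and 22.2 in vavCre (log2 change 2.65, 95% interval 0.03 to 5.27, adjusted p = 0.303). A single wild-type library, replicate 3, is the one that reaches the vavCre level. Without that library the log2 change of Cd209e is 4.26 and the adjusted p 0.0428.

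Cd209d, the mannose- and fucose-binding receptor, showed the same spread between libraries: 1.21, 0 and 96.7 in RPM_d7_WT against 1.84, 81.4 and 15.9 in RPM_d7_vavCre (log2 change 1.40, limma-trend adjusted p = 0.749). Most of its reads came from 1 library in each group. Cd209a, the dendritic cell receptor, had reads in 1 of 3 libraries of each spleen group, at 4.11 in wild type and 17.5 in vavCre. Cd209c had no read in the 3 wild-type libraries and 3 reads, all in 1 library, in vavCre. At this depth a change in Cd209a or Cd209c could not be detected.

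**Figure D1:**
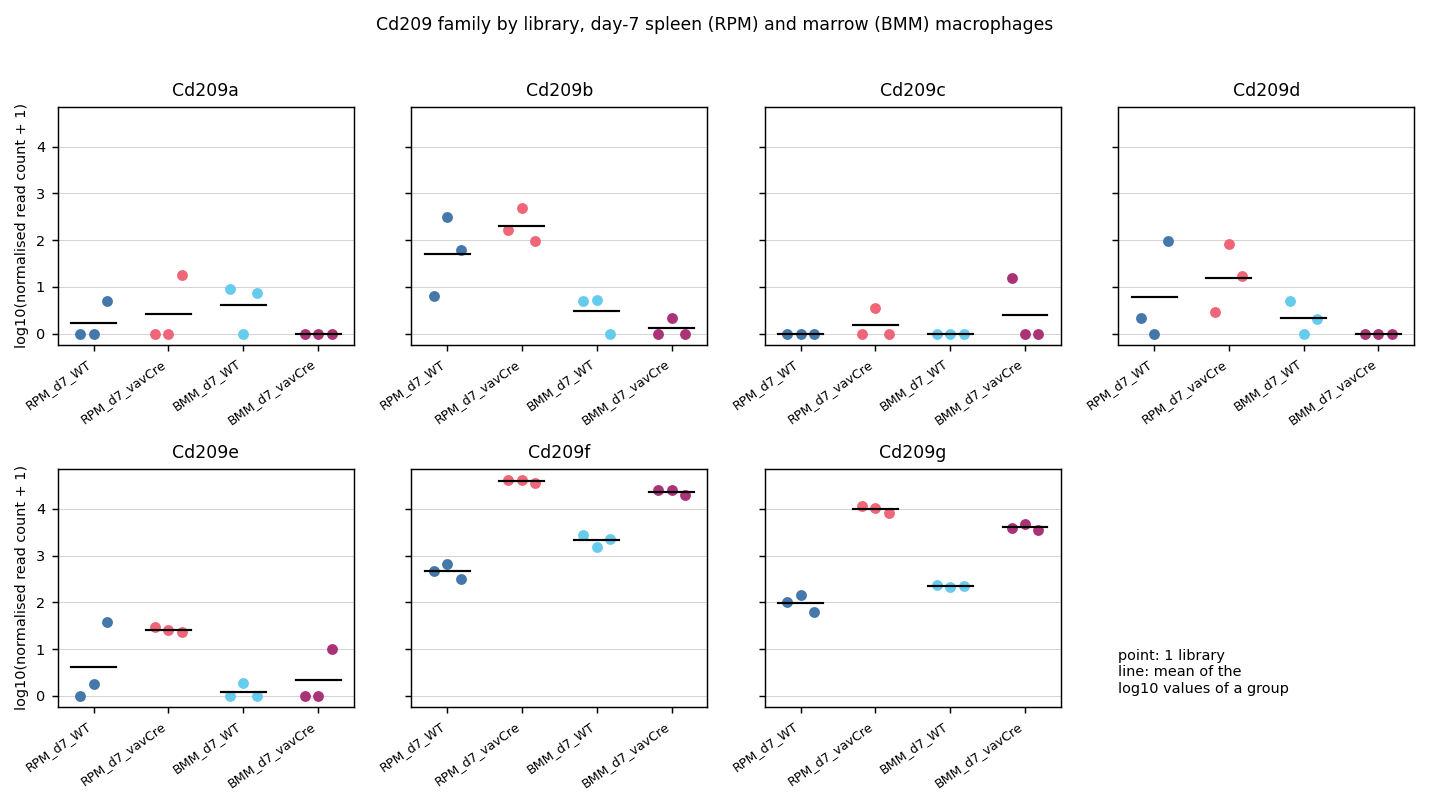
Normalised read count of each Cd209 member in the 12 day-7 libraries of the vavCre table, on a log10(value + 1) scale, with 1 point per library and a line at the mean of the log10 values of each group. Cd209f and Cd209g are higher in vavCre than in wild type in spleen and in marrow without overlap, while Cd209a to Cd209e stay low and scattered, with Cd209b, Cd209d and Cd209e reaching their highest values in spleen libraries.

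Bone marrow macrophages gave the same 2 genes, with smaller changes from a higher starting level. The value of Cd209f was 2753, 1523 and 2296 in BMM_d7_WT and 25250, 25550 and 19670 in BMM_d7_vavCre. The mean rose from 2191 ± 622 (SD, n = 3) to 23490 ± 3312 (SD, n = 3), a log2 change of 3.45 ± 0.22 (SE, limma-trend adjusted p = 1.72e-08), or 10.96-fold. Cd209g was at 239, 213 and 226 in wild type and at 3891, 4662 and 3569 in vavCre (log2 change 4.15 ± 0.24 SE, adjusted p = 2.70e-09). Neither gene overlapped between the groups.

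These were again the 2 of 7 members called, both higher, beside 7.81% of all genes tested. In marrow the remaining members were at or near 0. Cd209b had 7 reads over the 3 BMM_d7_WT libraries and 1 read over the 3 BMM_d7_vavCre libraries. Cd209a had 10 reads in wild type and none in vavCre, Cd209d had 3 and none, Cd209e had 1 and 4, and Cd209c had none and 7. The log2 changes of these 5 genes ran from -2.01 to 1.32, and the smallest of their adjusted p-values was 0.355.

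The rise of Cd209f and Cd209g differed between the tissues. The log2 change of Cd209f in spleen exceeded that in marrow by 2.97 ± 0.32 (SE), and the test of this difference gave it the smallest p of all 15130 genes (limma-trend interaction, adjusted p = 0.000482). For Cd209g the difference was 2.52 ± 0.34 (SE, adjusted p = 0.00173). These are 2 of 7 members called, beside 0.119% of all genes tested. The direction of the difference also shows in the levels: wild-type spleen started lowest and vavCre spleen ended highest.

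Between the tissues of wild-type pups, the values of Cd209f were 312 to 658 in spleen and 1523 to 2753 in marrow, a log2 difference of -2.21 ± 0.22 (SE, limma-trend adjusted p = 9.29e-06). For Cd209g it was -1.22 ± 0.24 (SE, adjusted p = 0.0065), and these were the 2 members called, both lower in spleen, beside 3.89% of all genes. Fitted on the 6 wild-type libraries alone, Cd209g no longer passed (adjusted p = 0.107). Cd209b lay the other way: each of the 3 spleen libraries, at 5.44 to 312.5, was above each of the 3 marrow libraries, at 0 to 4.38. The log2 difference of Cd209b was 4.05 (95% interval 1.46 to 6.65, adjusted p = 0.082). In reads 517 in spleen stood against 7 in marrow, a ratio of 38.0 with a 95% counting interval of 18.3 to 94.9. The counting interval leaves out the spread between libraries, and the spleen libraries held 9, 376 and 132 reads. On the recovered reads Cd209b passed, by edgeR (adjusted p = 0.027) and DESeq2 (adjusted p = 0.00745), as it did by limma-trend without RPM_d7_WT replicate 1 (adjusted p = 0.0183).

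In vavCre the order of the tissues was the other way round for Cd209f and Cd209g. Cd209g was higher in spleen by 1.29 ± 0.24 (SE, log2, limma-trend adjusted p = 0.00363). For Cd209f the log2 difference was 0.76 (95% interval 0.29 to 1.24, adjusted p = 0.0754), which missed the threshold although the groups do not overlap. The second member called, beside Cd209g and 3.50% of all genes, was Cd209b, which was higher in spleen by 7.24 ± 1.24 (SE, log2, adjusted p = 0.00167). It had 958 reads in the spleen libraries against a single read in the marrow libraries, a ratio of 411 with a 95% counting interval from 73.5. Cd209d (119 reads against none) and Cd209e (103 against 4) also had non-overlapping groups, with adjusted p of 0.158 and 0.138. These intervals cover counting error only.

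Across the 4 day-7 groups the order of Cd209f was RPM_d7_vavCre, BMM_d7_vavCre, BMM_d7_WT and RPM_d7_WT from high to low, with no overlap between neighbours, and the first pair did not pass the test. Cd209g had the same order and no overlap, and all of its neighbouring pairs passed. Per kilobase of the longest annotated coding transcript, the wild-type spleen levels were 413 for Cd209f, 86.8 for Cd209g, 61.8 for Cd209b, 35.5 for Cd209d, 7.08 for Cd209e, 0.924 for Cd209a and 0 for Cd209c. Below Cd209f, the ranges of Cd209g and Cd209b overlap, as do those of Cd209b, Cd209d and Cd209e and those of Cd209e and Cd209a.

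The 2 raised genes did not keep the same proportion in both tissues. Cd209g stood to Cd209f, per kilobase, as 0.197 to 0.275 in the 6 spleen libraries and as 0.0866 to 0.182 in the 6 marrow libraries. Within spleen the wild-type libraries had ratios of 0.197 to 0.214 and the vavCre libraries 0.224 to 0.275, and within marrow these were 0.0866 to 0.139 and 0.154 to 0.182. None of these pairs of groups overlap. The ratio is given as a description, because reads shared by the 2 genes may be split unequally.

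**Figure D2:**
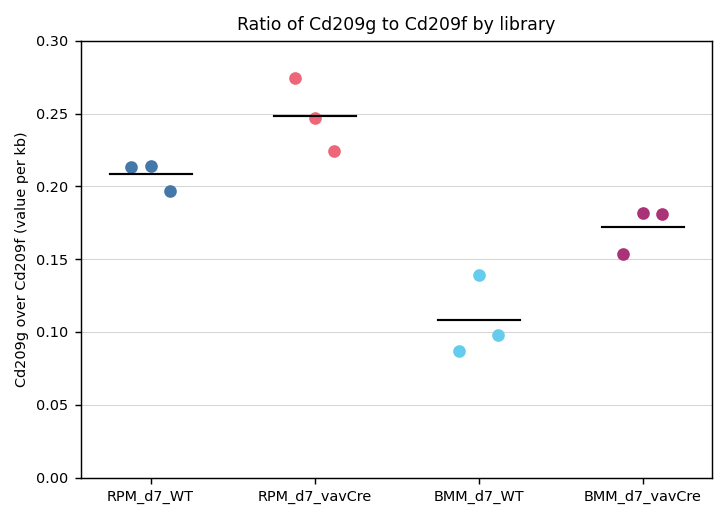
Ratio of Cd209g to Cd209f, each as value per kilobase, in the 12 day-7 libraries of the vavCre table, with 1 point per library and a line at the group mean. The 6 spleen libraries lie between 0.197 and 0.275, above all 6 marrow libraries, and within each tissue the vavCre libraries lie above the wild-type ones.

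The genes beside the cluster were looked at in the same way. Of the 26 protein-coding genes within 250 kb of the cluster, 15 on one side and 11 on the other, 21 were tested in the first table, and in the 2 vavCre comparisons none of them was called (limma-trend), beside 5.52% and 7.81% of all genes, shares at which 0 of 21 is no result about the neighbours. At an unadjusted p under 0.05 the count was 1 in spleen and 1 in marrow. The nearest tested gene beyond Cd209g, Evi5l, was at 88.4 ± 13.04 (SD, n = 3) in RPM_d7_WT and 53.9 ± 12.9 (SD, n = 3) in RPM_d7_vavCre (log2 change -0.72, adjusted p = 0.543). The nearest tested gene beyond Cd209a, the IgE receptor and C-type lectin gene Fcer2a, varied from 1.81 to 172 among the wild-type spleen libraries (adjusted p = 0.441). Mcemp1, a myeloid membrane protein gene, had the largest positive log2 change of the neighbours in spleen, 3.04, from 4.50 ± 2.86 to 47.0 ± 32.6 (SD, n = 3 each, adjusted p = 0.205), and its groups did not overlap. Camsap3, a gene of microtubule ends, was lower in vavCre marrow without overlap, with 13.1 ± 10.5 (SD, n = 3) in wild type and no read in vavCre (adjusted p = 0.0622).

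**Figure D3:**
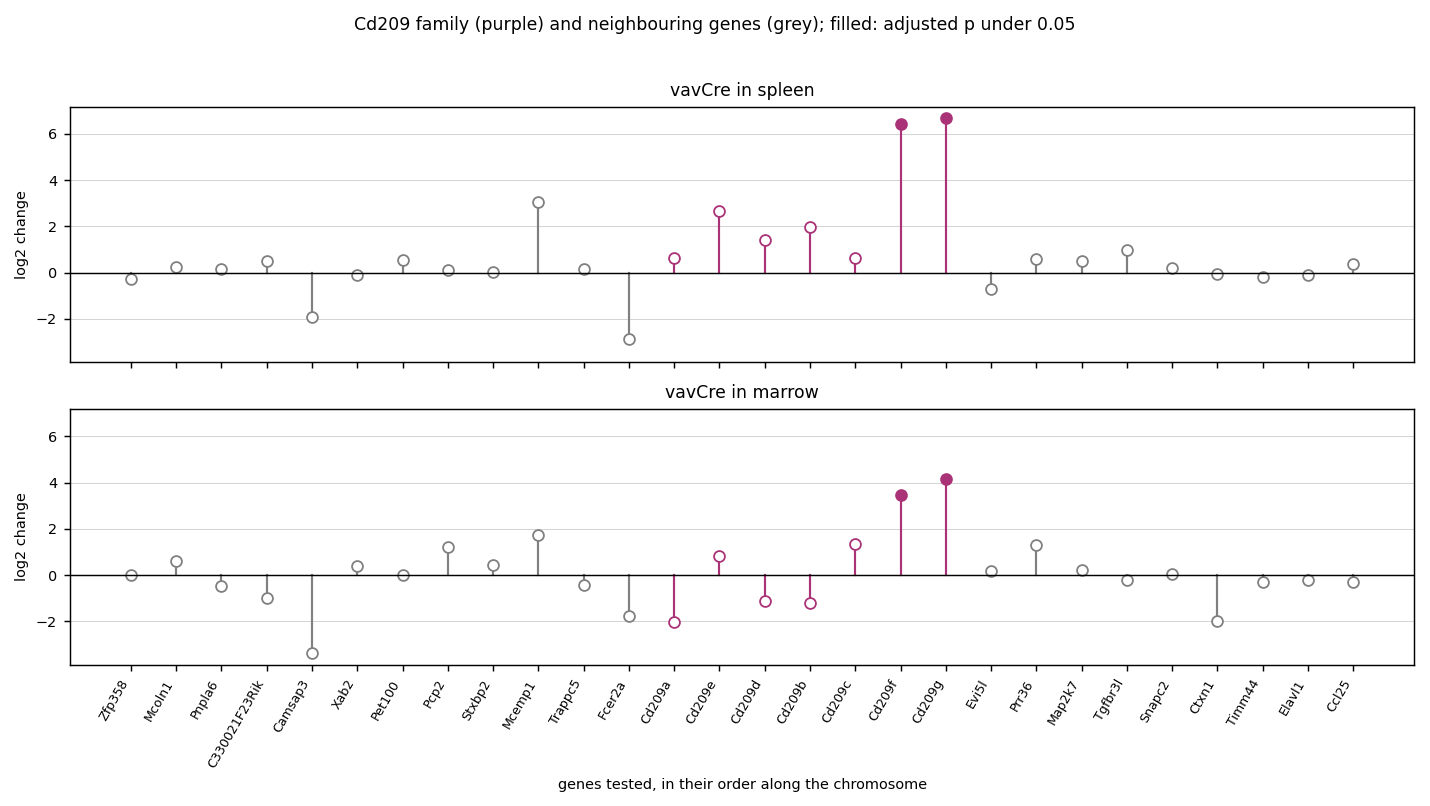
Log2 change in vavCre against wild type of the 7 Cd209 members and the 21 neighbouring genes tested, in their order along the chromosome, in spleen (top) and marrow (bottom), with filled points for adjusted p under 0.05. Cd209f and Cd209g are the filled points in both panels, at 6.43 and 6.67 in spleen and 3.45 and 4.15 in marrow.

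Some genes elsewhere in the genome correlated closely with Cd209f and Cd209g over the 12 libraries. Over 11515 genes compared on the log2(value + 1) scale, those most like Cd209f were Wfdc17 (Pearson r = 0.993), a small secreted protein of activated macrophages, C5ar1 (0.984), the receptor for complement C5a, the scavenger receptor gene Stab1 (0.978), the chemokine gene Ccl7 (0.978) and Rnasek (0.977). Cd209g itself correlated with Cd209f at 0.986. Cd209g shared C5ar1, Wfdc17 and Rnasek with it, followed by the cell-cycle inhibitor gene Cdkn1a (0.971) and Sepp1 (0.969), the older symbol of the selenoprotein P gene. The 12 libraries share 4 groups and 1 normalisation, so these correlations are a description.

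A correlation does not measure the size of a change, and the sizes differed between these genes. Rnasek went from 2003 ± 44.5 to 3168 ± 115 (SD, n = 3 each) in spleen, a log2 change of 0.66, and rose by 0.45 in marrow. Stab1 had a mean of 7507 in RPM_d7_vavCre and 9620 in BMM_d7_vavCre, the reverse of the order of Cd209f, with an overlap. C5ar1 went from 33.2 to 85.6 among the wild-type spleen libraries to values between 1404 and 2018 in the vavCre ones. In marrow its wild-type libraries held 94.5 to 145 and its vavCre libraries 1055 to 1206. Stab1 rose by 5.22 ± 0.18 in spleen and by 3.19 ± 0.18 in marrow (SE, log2), and Ccl7 by 6.77 ± 0.51 and 2.99 ± 0.51. The tissue difference in the change, which marks Cd209f and Cd209g, passed for Stab1 (2.03, limma-trend adjusted p = 0.000584), Wfdc17 (1.39, adjusted p = 0.00173), Sepp1 (0.77, adjusted p = 0.00608) and Ccl7 (3.78, adjusted p = 0.0484), and did not pass for C5ar1, Rnasek and Cdkn1a. For the lower members the best matches were weaker: r was 0.888 to 0.922 for Cd209b, led by Atg10, 0.821 to 0.873 for Cd209d and 0.895 to 0.913 for Cd209e. Between Cd209b and Cd209f the correlation was 0.02.

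Of 23 genes of perivascular and LYVE1-bearing macrophages, the cells in which Cd209f is usually described, 14 rose, none fell and 9 were not called in vavCre spleen (median log2 change 1.84, against -0.02 over all genes). In vavCre marrow 12 rose, none fell and 11 were not called (median 1.11 against -0.04). Of all genes, 5.52% and 7.81% were called in these comparisons. Besides Stab1 these included Pf4, the platelet factor 4 chemokine, which went from 535 ± 51.8 to 11425 ± 2514 (SD, n = 3 each) in spleen, and Gas6, a ligand that bridges dying cells to phagocytes, which went from 574 ± 86.8 to 3122 ± 125 in marrow. Sepp1 rose in spleen from 50343 ± 5409 to 179300 ± 10046. In wild type 9 of the 23 were lower in spleen than in marrow, Stab1 and Pf4 among them, and 2 were higher, Ccl24 and Fcna. Between these tissues of wild type 3.89% of all genes were called. Since this list was drawn up with results of these data known, its count does not stand as separate evidence.

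Of 27 genes through which DC-SIGN receptors signal, 6 rose and 2 fell in vavCre spleen, where 5.52% of all genes were called, and 5 rose and 1 fell in marrow, where 7.81% were (median log2 changes 0.38 and 0.25). Il10, the cytokine that DC-SIGN ligation is known to enhance, rose in spleen from 17.2 ± 8.13 to 211 ± 81.7 (SD, n = 3 each, log2 change 3.56, limma-trend adjusted p = 0.000743). The adaptor gene Tyrobp rose by 0.55 in spleen (adjusted p = 0.000219), and Ptpn6, a phosphatase of inhibitory receptors, rose by 0.71 in marrow (adjusted p = 0.00352), as did the kinase gene Ikbke by 1.35 (adjusted p = 0.00832). The kinase gene Fyn fell by 1.62 on the log2 scale in spleen and fell by 3.65 in marrow.

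Other C-type lectin receptors of myeloid cells were called in both directions. Of 28 tested, 3 rose and 2 fell in spleen, where 5.52% of all genes were called. In marrow 4 rose and 2 fell, where 7.81% of all genes were called. The medians were 0.04 and 0.06. Clec4n, the gene of the mannan receptor Dectin-2, rose by 1.25 ± 0.14 in spleen and by 1.54 ± 0.14 in marrow (SE, log2). Clec4b1 went from 738 ± 95.9 to 22.5 ± 7.67 in spleen and from 745 ± 60.1 to 6.19 ± 5.22 in marrow (SD, n = 3 each), and Clec12a, an inhibitory receptor of myeloid cells, went from 3809 ± 139 to 618 ± 131 in spleen and from 2239 ± 265 to 477 ± 181 in marrow. All 4 of these falls passed the test (limma-trend), at log2 changes of -5.02, -6.94, -2.64 and -2.28.

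Among 20 other lectin and scavenger receptor genes, 6 rose and 5 fell in spleen, beside 5.52% of all genes called. In marrow 5 rose and 6 fell, beside 7.81% of all genes. Marco, a scavenger receptor that marks marginal zone macrophages together with Cd209b, went from 2801 ± 608 to 17747 ± 1190 in spleen and from 1106 ± 333 to 7112 ± 821 in marrow (log2 changes 2.68 and 2.72, limma-trend). Its change did not differ detectably between the tissues (difference -0.04, adjusted p = 0.988), unlike those of Cd209f and Cd209g. Nr1h3, also listed as a marginal zone marker, lay the other way without overlap and was not called. It was at 1449 to 2191 in RPM_d7_WT and 599 to 1397 in RPM_d7_vavCre, and at 1249 to 1409 in BMM_d7_WT and 496 to 1062 in BMM_d7_vavCre. Msr1, scavenger receptor A, rose by 1.49 in spleen, and Stab2, a hyaluronan receptor, fell by 1.41 on the log2 scale in marrow.

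Of 21 genes that make or trim the sugars these lectins bind, 2 rose and 1 fell in each tissue, beside 5.52% of all genes called in spleen and 7.81% in marrow. Man1a and Man1c1, mannosidases that trim high-mannose glycans, rose in both, Man1a from 522 ± 49.1 to 1300 ± 226 in spleen (SD, n = 3 each). Mgat5 fell in spleen and Man2a1 in marrow. Of 19 genes of the response to the cytokines IL-4, a known inducer of DC-SIGN, IL-13 and IL-10, 2 rose in spleen (Il13ra1 by 1.10 and Ccl24 by 1.16, log2) and 1 fell in marrow (Tgm2). Of 26 genes of PPARG, RXR, Spic and their cofactors, 3 rose and 3 fell in spleen and 1 rose and 1 fell in marrow. Beside 7.81% of all genes, the marrow counts of this list and of the IL-4, IL-13 and IL-10 list are no result about their genes. Those that rose in spleen were Bach1, Maf and Pparg itself. Pparg was at 1550 to 2124 in RPM_d7_WT and at 2496 to 4002 in RPM_d7_vavCre. Id2, a regulator of lineage choice, fell by 3.30 in spleen and fell by 2.58 in marrow on the log2 scale, and the macrophage factor Maf rose by 0.90 and 0.78. Spic fell by 0.69 in spleen.

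Markers of other cells moved with the genotype too, and their part in the rise of Cd209f and Cd209g was not tested. Of 6 erythroid markers 5 fell in vavCre spleen and 6 in marrow, beside 5.52% and 7.81% of all genes called. Their summed value was 158584 to 234724 in RPM_d7_WT and 80416 to 116774 in RPM_d7_vavCre. Of the 7 genes listed as red pulp markers, Vcam1, Treml4 and Siglec1 fell in both tissues. Slc40a1, the iron exporter ferroportin, rose in both and Adgre1 rose in marrow. Siglec1 is not particular to the red pulp here: it was at 559 to 957 in RPM_d7_WT and at 893 to 1166 in BMM_d7_WT. Of 6 pan-macrophage markers Lyz2 rose in spleen, while in marrow Csf1r and Lyz2 rose and Mertk and Fcgr1 fell. Their sum was higher in vavCre without overlap, at 52609 to 66276 against 98373 to 100339 in spleen. In marrow it was 50616 to 60963 against 80354 to 96657. Of 8 dendritic cell markers 1 fell in spleen, Itgax, and none changed in marrow, and their sum overlapped between the groups (347 to 1166 against 512 to 1044 in spleen). None of the 6 monocyte and 7 neutrophil markers was called. The monocyte sum was lower in vavCre without overlap in both tissues, at 812 to 919 against 314 to 688 in spleen and 797 to 1055 against 312 to 621 in marrow. The neutrophil sum was 318 to 2408 in RPM_d7_WT and 2444 to 5442 in RPM_d7_vavCre, whereas in marrow BMM_d7_WT, at 960 to 4186, overlapped BMM_d7_vavCre, at 1313 to 1928. Of 5 B cell markers 1 fell in spleen and 2 in marrow. Of the sinusoidal endothelial markers Stab2 and Pecam1 fell in both tissues. In spleen Cdh5 and Lyve1 lay the other way without overlap and were not called. Cdh5 was at 29.7 to 44.7 in RPM_d7_WT and 77.3 to 116 in RPM_d7_vavCre, and Lyve1 at 0 to 24.2 and 48.3 to 122. In marrow both overlapped between the groups. The median log2 change of the 5 tested was 0.74 in spleen and -1.09 in marrow. Clec4g, whose gene lies next to the cluster, had no read in any of the 4 groups.

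In day-7 pups labelled Spic_KO no member was called. The value of Cd209f was 37.9, 12.3 and 10.7 in RPM_d7_Spic_WT and 49.6 and 44.0 in RPM_d7_Spic_KO, so both knockout libraries lay above all 3 wild-type ones. The log2 change was 1.39 (95% interval -0.77 to 3.55, limma-trend adjusted p = 0.527). Cd209g was at 0.758, 5.96 and 1.30 against 19.0 and 4.14, with an overlap (log2 change 1.74, 95% interval -0.90 to 4.38, adjusted p = 0.513). These intervals also hold changes of several fold in Cd209f, so a rise of that size could be neither shown nor set aside with 3 and 2 libraries.

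The other members were sparse in these pups. Cd209b had 68 reads in 1 of the 2 Spic_KO libraries (34.0) and none in the other or in the 3 wild-type libraries, where the floor of 3 reads corresponds to values of 0.758 to 1.05. Cd209e was at 1.502 and 5.69 in Spic_KO and had no read in wild type. Cd209d had 8 reads in 1 wild-type library, and Cd209a and Cd209c had none in all 5. By limma-trend none of the 7 members was called and none had an unadjusted p under 0.05, beside 3.95% of the 16650 genes called, and edgeR and DESeq2 on the recovered reads also called none. Of the neighbours, Fcer2a was called: it had no read in RPM_d7_Spic_WT and was at 24.5 and 32.1 in RPM_d7_Spic_KO (adjusted p = 0.000946). The summed B cell markers were at 473 to 655 in RPM_d7_Spic_WT and at 491 and 582 in RPM_d7_Spic_KO, and their part in this was not tested.

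Several genes that rose with Cd209f in vavCre moved in different directions in Spic_KO. Pf4 rose, from 75.2 ± 27.5 (SD, n = 3) to a mean of 1292 in the 2 Spic_KO libraries (log2 change 4.12), while Fcna fell from 3924 to 81.9 and Cbr2 from 48.2 to 0.25. Over the 22 perivascular and LYVE1 macrophage genes tested, 3 rose and 2 fell (median 0.07, against 0 over all genes). Of all genes, 3.95% were called in this comparison. Marco was at 164 to 239 in RPM_d7_Spic_WT and at 437 and 820 in RPM_d7_Spic_KO (limma-trend adjusted p = 0.125). Of the 27 other C-type lectin receptors 4 rose and 3 fell, with Cd302 and Clec4n among the lower ones, and of 27 signalling genes only Pak1 was called, which fell by 2.46 on the log2 scale.

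**Figure D4:**
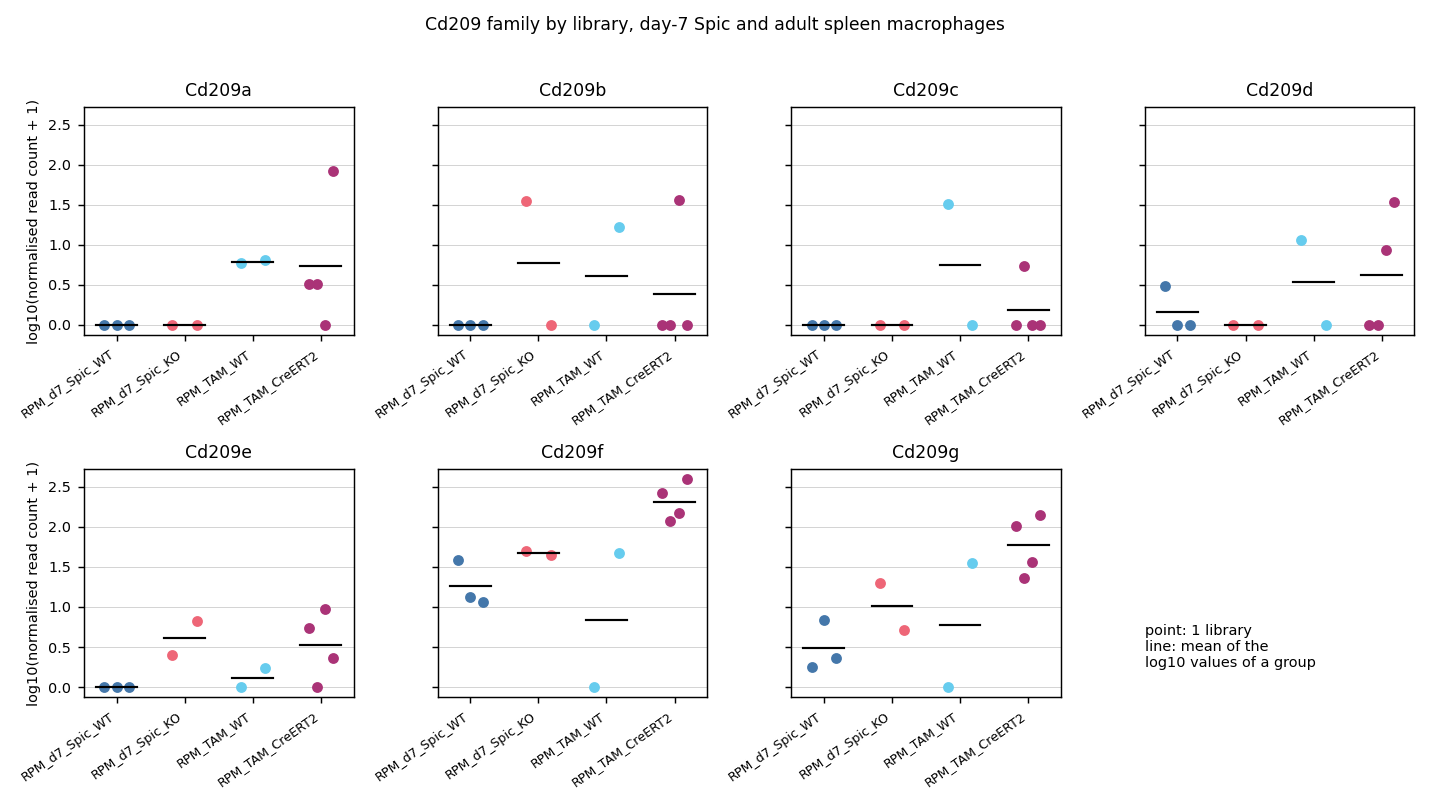
Normalised read count of each Cd209 member in the 11 spleen libraries of the Spic and CreERT2 table, on a log10(value + 1) scale, with 1 point per library and a line at the mean of the log10 values of each group. Cd209f is highest in the 4 RPM_TAM_CreERT2 libraries, at 117 to 392, and RPM_TAM_WT holds 1 library at 0 and 1 at 45.9, while most other points lie at or near 0.

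In adults, Cd209f was higher in each of the 4 RPM_TAM_CreERT2 libraries than in either RPM_TAM_WT library. Its value was 0 and 45.9 in RPM_TAM_WT and 261, 117, 148 and 392 in RPM_TAM_CreERT2. The log2 change was 4.91 ± 0.98 (SE, limma-trend adjusted p = 0.0463), and Cd209f had the largest log2 change of the 10 genes that rose. This was 1 of 7 members, where 0.144% of all genes were called. The size rests on the RPM_TAM_WT library at 0, replicate 1: without it the log2 change is 2.14 (adjusted p = 0.726). In reads the ratio was 7.37, with a 95% counting interval of 6.10 to 8.97, from 745 reads in CreERT2 and 127 in wild type. That interval leaves out the spread between libraries, which held 0 and 127 reads in RPM_TAM_WT and 53 to 305 in RPM_TAM_CreERT2. The call was kept with a stricter filter (adjusted p = 0.0405) and lost in 12 alternatives. Without RPM_TAM_WT replicate 3 the adjusted p was 0.000755, but that leaves wild type with the single library at 0, whose spread is assumed to be that of the other groups.

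Cd209g went with it but was not called. It was at 0 and 34.7 in RPM_TAM_WT and at 102, 22.2, 35.8 and 141 in RPM_TAM_CreERT2, where replicate 2 lies below the higher wild-type library (log2 change 3.31, 95% interval 0.81 to 5.82, limma-trend adjusted p = 0.512). In RPM_TAM_WT replicate 1, in which 1 read is worth 0.817, neither Cd209f nor Cd209g had a read, which allows a value of up to 2.45 for each. That library did hold reads of Cd209c (38) and Cd209d (13). The other members were scattered: Cd209a at 2.27, 2.22, 0 and 82.2 in CreERT2 and at 4.90 and 5.43 in wild type, Cd209b with reads in 1 library of each group, and Cd209e at 0 to 8.47. Their adjusted p-values ran from 0.713 to 0.982.

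Beside Cd209f, the genes called in this comparison included Gas6, which went from 3.27 and 41.6 in RPM_TAM_WT to 110 to 257 in RPM_TAM_CreERT2 (log2 change 3.57 ± 0.68 SE, limma-trend adjusted p = 0.0432), and the beta-glucan receptor gene Clec7a, from 78.4 to 356 on average (adjusted p = 0.0432). Gas6 was also among the genes most like Cd209f over the 11 libraries of this table (Pearson r = 0.935), after Selenop (0.959) and Taf11 (0.936). Cd209g correlated with Cd209f at 0.861. Of the 22 perivascular and LYVE1 macrophage genes tested 1 was called, Gas6, beside 0.144% of all genes. Their median log2 change was 1.55, against 0 over all genes. Pparg was at 92.3 and 168 in RPM_TAM_WT and at 182 to 261 in RPM_TAM_CreERT2, which does not check the labels either, and the haemoglobin gene Hba-a1 rose by 0.94 (log2). The summed erythroid markers were at 65766 and 110510 in RPM_TAM_WT and at 102145 to 187697 in RPM_TAM_CreERT2, and these groups overlap. The summed B cell markers were at 853 and 877 against 326 to 477, without overlap. Summed monocyte markers (594 and 620 against 304 to 571) and dendritic cell markers (318 and 580 against 184 to 313) were also lower in RPM_TAM_CreERT2 without overlap. So was the sum of the sinusoidal endothelial markers (503 and 550 against 258 to 461), but most of it was Stab2. Stab2 was at 379 and 439 in RPM_TAM_WT and at 148 to 276 in RPM_TAM_CreERT2. The median log2 change of the 5 endothelial markers tested was 1.55, against 0 over all genes, so they did not fall as a set. None of these markers was called. Their part in the rise of Cd209f was not tested.

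**Figure D5:**
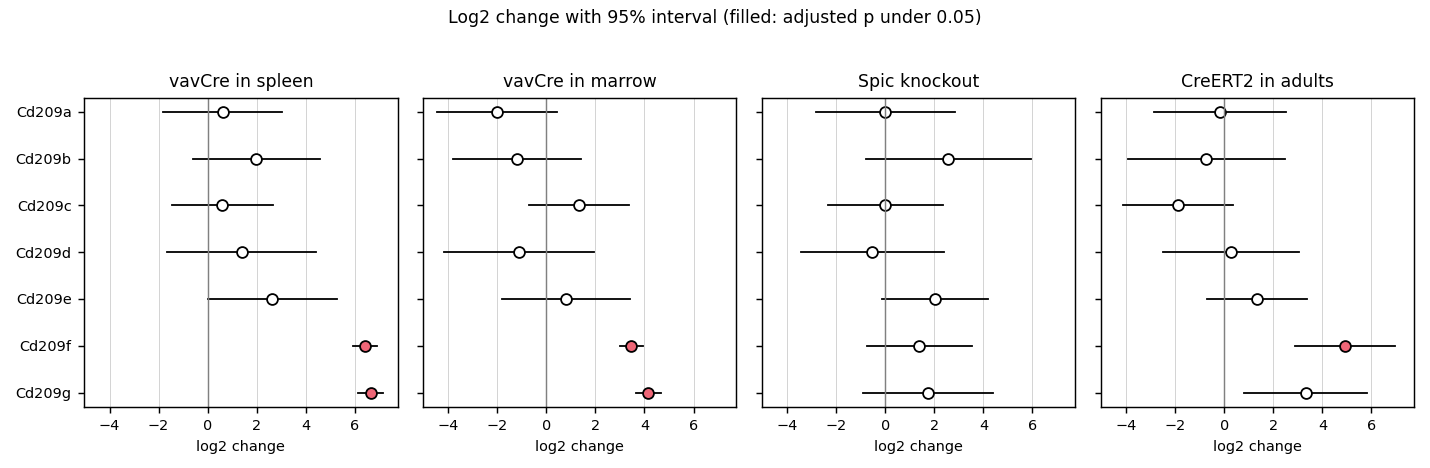
Log2 change of the 7 Cd209 members with its 95% interval in 4 comparisons, on the log2(value + 1) scale, with filled points for adjusted p under 0.05. The intervals of Cd209f and Cd209g are narrow and far from 0 in both vavCre comparisons, while in the Spic and CreERT2 comparisons they are several log2 units wide and only Cd209f in CreERT2 is filled.

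Adult wild-type and day-7 Spic_WT spleen macrophages were compared last, and here age and the label TAM cannot be told apart. No member was called, beside 3.42% of all genes tested. Cd209f was at 10.7 to 37.9 in the pups and at 0 and 45.9 in adults (log2 change -1.41, 95% interval -3.57 to 0.75, limma-trend adjusted p = 0.573). Cd209a had no read in the 3 pup libraries and 6 and 15 reads in the 2 adult ones, values of 4.90 and 5.43 (adjusted p = 0.368). One member, Cd209c, had an unadjusted p under 0.05. Without RPM_TAM_WT replicate 3, so with replicate 1 alone for the adults, 2 members were called, Cd209c (adjusted p = 0.0183) and, lower, Cd209f (log2 change -4.19, adjusted p = 0.0108), the lone library being assumed to vary like the other groups. The adult libraries also held more of the B cell markers Ms4a1 and Pax5 and of the neighbour Fcer2a, which had no read in the pups and was at 148 and 79.9 in the adults (adjusted p = 4.73e-05). The part of B cells in this was not tested.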

How the data were processed

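Libraries were aligned and normalised by the authors with STAR and edgeR on GRCm38, per the submitters' processing notes, which give no versions. The deposited values are a signal of normalised read counts, in 2 tables. Within 0.1 read, 96.6 to 100% of the values worth up to 500 reads in a library came out as whole reads, and these recovered reads gave the depths and the count tests. The main test was limma-trend 3.58.1 (robust, R 4.3.3) on log2(value + 1) over all libraries of a table, for the 15130 and 16650 genes at 1 or above in 2 libraries or more, with Benjamini-Hochberg adjustment over all of them and calls at an adjusted p under 0.05. Log2 changes understate those of low genes. Alternatives were other filters, pseudocounts and sample sets, a replicate block, libraries left out in turn, and edgeR 4.0.16 and DESeq2 1.42.0 on recovered reads. The procedures were tested on simulated data. Identity and motifs used RefSeq promoters and GENCODE transcripts, with Biopython 1.88.

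Named were all members, protein-coding genes within 250 kb, up to 3 called genes of smallest p per list (or the 2 of highest mean), and the 5 genes most correlated with a member whose mean was at least 20 in a group. Members and lists were chosen with earlier results of these data known. In the first table Selenop was found under its older symbol, Sepp1.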

Additional observations from a re-analysis of the deposited data

Results flagged for a closer look

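The difference between the tissues in the vavCre change of Cd209f, a log2 difference of 2.97, and of Cd209g, 2.52, passed the test of the difference itself (limma-trend interaction, adjusted p = 0.000482 and 0.00173). Of the 7 groups of 4 libraries looked at, 1 for each member in RPM_TAM_CreERT2, 3 held a library set apart from the others: Cd209a at 82.2 in replicate 5, Cd209b at 34.8 in replicate 4 and Cd209c at 4.43 in replicate 2. The Cd209c value is 2 reads, below the floor of 3 reads in that library, 6.65. About 1 in 20 such groups is set apart by chance. That rate does not cover groups whose other libraries are all at 0, as in 2 of these 3.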

How the results depend on the processing

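Of 122 recomputed counts of called members, 107 stayed within 1.5 times the main count, and of 792 recomputed log2 changes of single members none changed direction while called, 13 lost a call and 10 gained one. Cd209f and Cd209g were called in both vavCre comparisons under every alternative run, with log2 changes of 6.15 to 6.68 and 6.35 to 6.94 in spleen and 3.21 to 3.64 and 4.04 to 4.23 in marrow. The count for CreERT2 was 0 instead of 1 with no filter, a pseudocount of 0.1 or 5, the compared groups only, edgeR with TMM or RLE scaling and DESeq2, with adjusted p of Cd209f from 0.082 to 0.718, and 0 to 1 with libraries left out in turn (adjusted p 0.000755 to 0.726). With the compared groups only, 1 member instead of 2 was called between the tissues of wild type. With DESeq2, 4 instead of 2 were called between the tissues of vavCre, Cd209d and Cd209f being the ones added. With libraries left out in turn, the count for adult against day-7 wild type was 0 to 2. Cd209b passed between the tissues of wild type by edgeR and DESeq2 (adjusted p 0.00745 to 0.0286) and without RPM_d7_WT replicate 1 (0.0183). The cause was not tested.

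The labels do not say whether replicate numbers pair the libraries. Same-numbered libraries of compared groups correlated at -0.0453 to 0.0823 in their deviations, and groups this small cannot decide the question. With the replicate block the counts were 2 in each of the 5 comparisons of the first table and 0 in Spic knockout and in adult against day-7 wild type, as without it. The CreERT2 groups share a single number, so no block was fitted there. Depth limits the 5 low members, and the CreERT2 libraries hold 692904 to 1668714 reads.

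Over all genes tested, the main test and edgeR with TMM scaling on recovered reads called 835 and 887 genes for vavCre in spleen, 1182 and 1023 in marrow, 18 and 31 for the difference between them, 588 and 604 between the tissues of wild type, 529 and 498 between those of vavCre, 658 and 949 for Spic knockout, 24 and 29 for CreERT2 and 569 and 707 for adult against day-7 wild type. DESeq2 called 1290, 1569, 93, 952, 950, 1694, 130 and 1259 in the same order. With the compared groups only, the counts were 1367 for vavCre in spleen, 742 in marrow, 37 for CreERT2 and 1637 for adult against day-7 wild type. With no filter, they were 11 for the difference between the tissues and 5 for CreERT2, and with pseudocounts of 0.1 and 5 CreERT2 gave 14 and 9. The replicate block gave 332 for Spic knockout and 290 for adult against day-7 wild type. In Spic knockout 245 genes were higher and 413 lower in the main test, against 554 and 395 by edgeR. For CreERT2 the median log2 change of all genes was 0 in the main test and 0.11 with RLE scaling and with DESeq2.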
